A study of Sus scrofa with 23 samples.

Results

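Some genes of the pig embryo are read out for a single cleavage stage and are then almost gone. Transient 4-cell genes are defined here by their levels in in vivo fertilized embryos. They were low up to the 2-cell stage, rose at the 4-cell stage and had fallen to a small part of that level by the 8-cell stage. Levels are FPKM, that is, fragments scaled to gene length and to the fragments counted in the library. A gene was taken when its FPKM was at least 5 in in vivo 4-cell embryos, under 1 in each of the in vivo oocyte, 1-cell and 2-cell libraries, and at most 0.2 times the 4-cell value in each of the in vivo 8-cell, morula and blastocyst libraries. These limits were met by 78 genes (0.907%), of which KLF17 and IL2RG were left out. Of the 8603 genes in the table, 76 were members, which is 0.883%, and 36 of them had a gene symbol. The in vivo values chose the members, so they are given below as a description. The values in cloned embryos were not used in the choice.

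The 23 libraries were made from polyadenylated RNA of pooled pig oocytes and embryos, with 1 library per group and stage. IV-D embryos (8 libraries) were Duroc embryos flushed from Duroc sows after artificial insemination, all by the same Duroc boar, together with in vivo matured oocytes of 2-year-old Duroc sows. NT-D (8 libraries) and NT-LW (7 libraries) were embryos made by nuclear transfer from ear fibroblasts of boars, both 1 year old. The NT-D donor was 1 Duroc boar, the sire of the IV-D embryos, and the NT-LW donor 1 boar of the Chinese breed Laiwu. Both groups were made with slaughterhouse oocytes of hybrid sows, matured in vitro, and grown in low-oxygen culture. The paper names PZM3 medium for the step before fusion and no medium for the later culture. These oocytes form the NT-D oocyte library and serve as the first stage of both clone groups. Stages were the oocyte (OC), the 1-cell, 2-cell, 4-cell and 8-cell embryo (1C to 8C), the morula (MO), and blastocyst parts with inner cell mass and trophectoderm (IT) or trophectoderm alone (TE). In pooled embryos, fewer cells of a type and less RNA per cell cannot be told apart, and mode of conception, breed of the dam, culture and embryo sex (clones of boars are male, the IV-D pools held both sexes) cannot be told apart between clones and IV-D embryos. With 1 library each, no test between conditions was possible; a gene was counted as higher or lower when its log2(FPKM + 1) values were more than 1 apart (2-fold) with an FPKM of 1 or more on either side, and the share of all 8603 genes meeting the same limits is given beside each count. The name of the deposited table calls these genes differentially expressed, so that a share of the table is not a share of all transcripts.

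After fertilization the embryo lives on RNA stored in the oocyte until it starts to transcribe its own genome, and in the pig the main wave of this embryonic genome activation falls at the 4-cell stage. Part of the early output of a newly active genome is short-lived, either because transcription stops again or because the RNA is degraded. In cloned embryos the same step has to be made by a nucleus that came from a differentiated cell.

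The libraries held 14952784 to 22991067 counted fragments, as recovered from the FPKM steps. Sums of markers followed the labels of the first and last stages. The sum of 11 oocyte transcripts was 3855 to 5599 FPKM in the oocyte and 1C libraries and at most 17.1 in the IT and TE libraries. The sum of 5 blastocyst markers was at most 0.288 in the oocyte libraries and 1030 to 2678 in the IT and TE libraries. It was already 272 in IV-D 4C embryos, where NANOG, 1 of the 5, stood at 269. NANOG was at 9.80 in IV-D IT and 0 in IV-D TE, unlike the sum. Genes of the fibroblast, the donor cell, were also measured: 6 markers summed to 127 FPKM in NT-D and 145 in NT-LW 4C embryos and to 5.48 in IV-D 4C embryos, with S100A4 at 95.3, 114 and 0. In the IV-D 1C library, which holds no donor cell, they summed to 65.6, with S100A4 at 39.9. None of these fibroblast markers could be a member, because each was under 5 FPKM in IV-D 4C embryos. The part of donor cell RNA in the clone values was not tested.

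At the IV-D 4-cell stage the 76 members ranged from 5.17 FPKM (SI, sucrase-isomaltase) to 1538 FPKM (ENSSSCG00000013559, without a symbol), with a median of 19.3 and a sum of 7188. The summed level of the same genes was 7.18 in oocytes, 6.26 in 1C, 6.94 in 2C, 342 in 8C, 49.0 in MO, 45.7 in IT and 21.3 in TE libraries. The 4C values rested on 46 to 23138 fragments per gene, with a median of 615. The lowest member, SI, was at 5.17 and the next, ENSSSCG00000032608, at 5.30, whereas ENSSSCG00000008193 at 4.81 and ENSSSCG00000040282 at 4.67 fell just outside. On the early side, DSG1 reached 0.924 and PRPF19 0.871 before the 4-cell stage, and MLIP at 1.08 and ENSSSCG00000034061 at 1.15 were outside. On the late side, the highest later value was 0.191 times the 4C value for C19orf25 and 0.187 times for DGKH, against 0.208 for ENSSSCG00000027987 and 0.210 for ABCA12, both outside. Another 219 genes met the 4-cell and early limits but not the late one, and these lasting 4-cell genes are the comparison set used below.

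**Figure D1:**
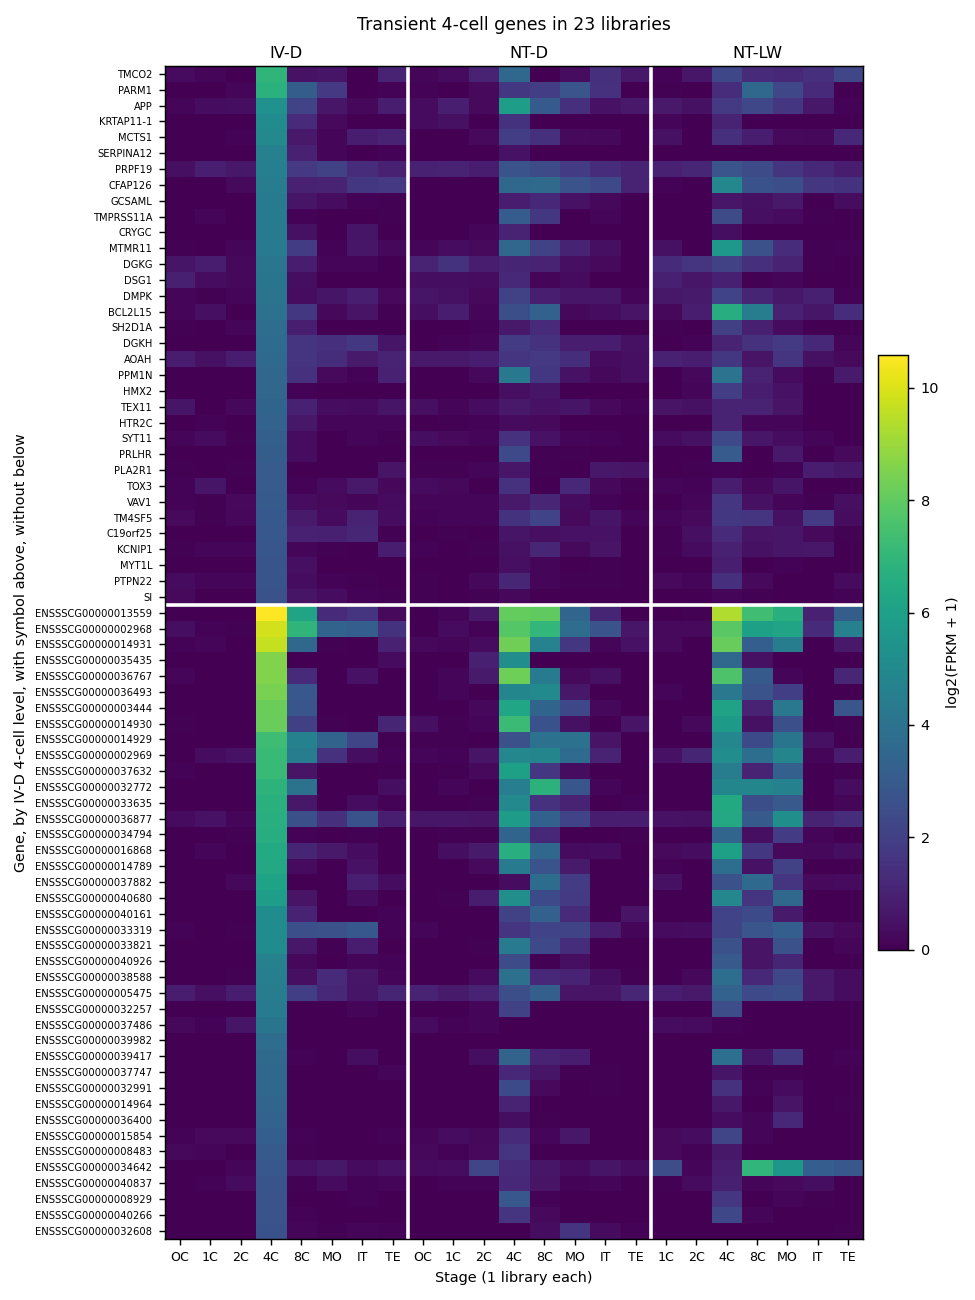
Heat map of 74 of the 76 transient 4-cell genes (rows, those with a symbol above) in the 23 libraries (columns, by group and stage); colour is log2(FPKM + 1). The bright IV-D 4C column is fixed by the choice of genes, and fainter 4C columns followed by 8C and MO signal are seen in both clone groups.

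A large part of the members was not named. Of the 76, 40 had no symbol (52.6%), against 14.3% of the table and 42 of the 219 lasting genes (19.2%). The 3 highest members had no symbol: ENSSSCG00000013559 at 1538 FPKM, ENSSSCG00000002968 at 944 and ENSSSCG00000014931 at 809. Gene length, recovered together with the fragments, had a median of 1577 bases over 75 members, 2653 over the lasting genes and 3182.5 over the table. Among the members, 28% were shorter than 1000 bases, against 7.34% of the table. Members with a symbol had a median length of 2884.5 bases and those without 1356. ENSSSCG00000039982 had fragments in no library but IV-D 4C (13.0 FPKM); seen in 1 library, its fragments and length are fixed only up to a common factor (193 fragments and 939 bases in lowest terms), and it was left out of the lengths.

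The named members had diverse known roles, and many are best known from tissues unlike an early embryo. The highest was TMCO2, a coiled-coil transmembrane protein, at 120 FPKM, followed by PARM1, a mucin-like transmembrane protein, at 107. APP, the amyloid precursor protein, stood at 39.8, KRTAP11-1, a hair keratin-associated protein, at 33.1, and MCTS1, a translation re-initiation factor, at 30.4. SERPINA12, a serpin secreted by fat tissue, was at 23.2, PRPF19, a ubiquitin ligase of the spliceosome, at 22.5, CFAP126, a protein of cilia, at 20.9, and GCSAML, a signalling-related protein, at 19.8. TMPRSS11A, a transmembrane serine protease, was at 19.7, CRYGC, a lens crystallin, at 19.6, MTMR11, a myotubularin-related protein, at 19.02, DGKG, a diacylglycerol kinase, at 16.8, and DSG1, a cadherin of desmosomes, at 16.3.

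Members made up 0.883% of the whole table, but the gene lists were matched by symbol. Counts in the larger lists are therefore read against the 36 members among the 7371 genes with a symbol. Transcription factors were listed by symbol prefix, and the list does not hold TOX3, a member grouped below with the nuclear and RNA factors. Of 302 listed transcription factors in the table, 2 were members: HMX2, a homeodomain factor, at 10.2 FPKM and MYT1L, a zinc finger factor of neurons, at 5.71. Of 215 channels and transporters 1 was a member, KCNIP1, a potassium channel-interacting protein, at 6.09. None of 58 immune and cytokine genes, 74 chromatin genes, 160 ubiquitin ligases and adaptors (a list that does not hold PRPF19), 12 immediate early genes, 6 genome activation genes known from other mammals, 2 small RNA genes, 11 oocyte transcripts, 5 blastocyst markers, 3 cumulus cell markers or 6 fibroblast markers was a member. The 40 members without a symbol could not match any of these lists, so no class is shown to be absent from the members. The study reports small nuclear RNAs among the genes it found at a single stage of in vivo embryos. Whether the unnamed members hold such RNAs was not tested. KLF17, a listed transcription factor and genome activation gene, and IL2RG, an immune gene by its symbol, met the limits but had been left out. The absence of members from the genome activation and immune lists therefore rests on that choice. The 11 oocyte transcripts could not be members, as each had an FPKM of at least 1 in IV-D oocytes. HMX2, MYT1L and the guanine nucleotide exchange factor VAV1 (6.97 FPKM) were the 3 members among factors that the study had picked on these samples, so that their presence is not independent evidence. In IV-D embryos, 95 of the 302 transcription factors were higher and 6 lower in 4C than in 2C embryos, beside 29.2% and 10.4% of the table.

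RefSeq places 31 of the 36 named members on the pig assembly Sscrofa11.1, on 14 chromosomes. The X chromosome, whose dosage differs with embryo sex, held 4 of them (12.9%), HTR2C, MCTS1, SH2D1A and TEX11, against 3.79% of 6910 placed genes of the table and 4.27% of 164 lasting genes. HTR2C is a serotonin receptor, SH2D1A an adaptor of lymphocyte signalling and TEX11 a factor of meiotic crossovers; their IV-D 4C values were 9.15, 12.9 and 9.52 FPKM. One pair of members were immediate neighbours on the same strand of chromosome 4. BCL2L15, a BCL2 family member, spans chr4:106673555-106683103, and PTPN22, a tyrosine phosphatase of lymphocytes, chr4:106692102-106758101, with 8998 bases and no annotated gene between them. On chromosome 6, PPM1N (chr6:51865061-51871146), a PPM-family phosphatase, and DMPK (chr6:52100259-52110822), the myotonic dystrophy protein kinase, were separated by 229112 bases that hold 10 genes. Of the 31, 12 overlap another RefSeq gene, most of these without a standard symbol, and MCTS1 (chrX:98729858-98742967) overlaps CUL4B on the opposite strand. As the library kit does not mark strand and the counting setting for strand is not given in the sources used here, reads of such overlapping genes could not be told apart. CUL4B stood at 16.6, 23.9 and 21.0 FPKM in IV-D 2C, 4C and 8C embryos.

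The sequence before the start of the gene is shown for the 3 highest named members and both listed transcription factors. In IV-D embryos each of these genes came on and went off within the same interval, as the choice of genes required. The 120 bases before the RefSeq start (Sscrofa11.1, 5′ to 3′ on the strand of the gene) are at chr6:96000013-96000132 (plus strand) for TMCO2, chr8:70788014-70788133 (plus) for PARM1, chr13:189716121-189716240 (minus) for APP, chr14:132690988-132691107 (plus) for HMX2 and chr3:131927939-131928058 (plus) for MYT1L. Capitals mark the TATA box (TATAAA), the CCAAT box and the GC box (GGGCGG), searched on either strand.
TMCO2: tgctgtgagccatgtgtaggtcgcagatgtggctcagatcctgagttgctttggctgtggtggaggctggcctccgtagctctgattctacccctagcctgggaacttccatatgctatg
PARM1: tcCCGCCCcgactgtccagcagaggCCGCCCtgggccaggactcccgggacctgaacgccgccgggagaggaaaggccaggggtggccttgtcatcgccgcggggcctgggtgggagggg
APP: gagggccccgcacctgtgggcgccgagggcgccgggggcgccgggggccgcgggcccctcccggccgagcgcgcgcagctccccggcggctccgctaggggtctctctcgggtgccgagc
HMX2: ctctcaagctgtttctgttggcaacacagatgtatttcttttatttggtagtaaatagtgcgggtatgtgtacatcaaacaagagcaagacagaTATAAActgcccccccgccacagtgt
MYT1L: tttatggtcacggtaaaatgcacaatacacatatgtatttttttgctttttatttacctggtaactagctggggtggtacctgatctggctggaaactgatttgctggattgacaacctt

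These stretches share little. HMX2 carries TATAAA starting 26 bases before its start, PARM1 carries 2 GC boxes, and TMCO2, APP and MYT1L hold none of the marked motifs in this window. Over the whole promoter window, from 250 bases before to 50 after the start, the G and C content was 78.7% for APP, 66.7% for PARM1, 56.7% for HMX2, 44.7% for MYT1L and 43.3% for TMCO2. The start used in the 4-cell embryo may differ from the RefSeq start.

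Across the 31 placed members, the GC box (GGGCGG) was found in 11 promoters (35.5%) and the CCAAT box in 5 (16.1%), searched on both strands. The shares were 69.8% and 43.8% over 162 lasting genes, 63.1% and 37.7% over 6820 promoters of the table, and 50.6% and 35.4% over all 19561 protein-coding promoters. The median G and C content was 54.7% in members, 62.2% in lasting genes and 58.7% in all promoters. TATAAA was found in 9.68% of members and 10.9% of all promoters, the E-box CACGTG in 6.45% and 7.91%, and the GC-rich motif CACCC, which KLF factors bind, in 58.1% and 59.3%. The bicoid-type motif TAATCC (3.23% of members, 6.11% of all), the AP-1 motif TGACTCA (3.23%, 3.41%) and the SOX motif CTTTGTT (3.23%, 4.30%) were each found in 1 member, and the octamer ATGCAAAT in 0 members and 1.39% of all promoters. The shorter motifs can lie within each other's flanks, and a match is a run of letters and not a binding site.

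Cloned embryos switched many of the same genes on at the same stage, at lower levels. In the NT-D 4C library 59 of the 76 members (77.6%) had an FPKM of at least 1, beside 82.8% of the table, and in NT-LW 56 members (73.7%), beside 83.9%; all 76 did so in IV-D by the choice of genes, beside 82.0% of the table. Of the members, 49 reached 1 in both clone groups and 10 in neither. Before that stage they were close to silent in the clones too, with 2, 2 and 3 members at an FPKM of at least 1 in the NT-D OC, 1C and 2C libraries and 2 and 3 in NT-LW 1C and 2C. Between the 2-cell and 4-cell stages 53 members were higher in NT-D, beside 14.6% of the table, and 51 in NT-LW, beside 14.6% of the table, and 0 were lower, beside 7.07% and 17.5% of the table. The lasting genes behaved alike in this respect, with 160 of 219 higher in NT-D and 180 of 219 in NT-LW.

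The stage of the highest level was also mostly shared. NT-D values were highest at the 4-cell stage in 52 of 76 members, beside 10.3% of the table, and NT-LW values in 57, beside 9.83%. The lasting genes peaked at the 4-cell stage in 29 of 219 cases in NT-D and 55 of 219 in NT-LW. The next most frequent stage among members was the 8-cell stage, with 15 in NT-D and 7 in NT-LW, and the morula followed with 4 and 5.

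**Figure D2:**
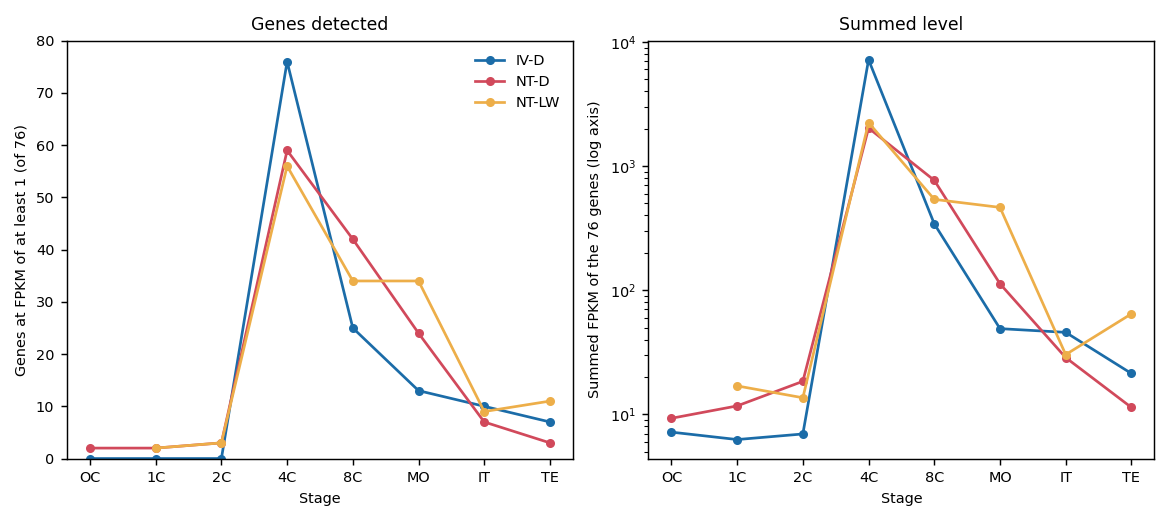
Left, number of the 76 transient 4-cell genes with an FPKM of at least 1 in each library; right, their summed FPKM on a log axis; x axis, stage; each point is 1 library and lines join a group. In NT-D the count is 59 at 4C, 42 at 8C and 24 in morulae, in NT-LW 56, 34 and 34, and in IV-D 76, 25 and 13.

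The levels reached were lower. The members summed to 2023 FPKM in NT-D and 2239 in NT-LW 4C embryos, against 7188 in IV-D. Since the IV-D 4C value was used to choose them, a lower value elsewhere is in part built in, and these numbers are a description. By the 2-fold limit, 62 members were lower in NT-D than in IV-D (11.5% of the table) and 62 in NT-LW (8.26% of the table). The median member stood at 19.3% of its IV-D level in NT-D and 18.3% in NT-LW, and the median lasting gene, chosen by the same 4C limit, at 34.3% and 48.7%. The late limit, a ratio to the same IV-D 4C value, applied to members only and favours a high value there. The median IV-D 4C level was 19.3 FPKM in members and 11.2 in lasting genes. The lasting genes therefore do not remove the built-in part of the difference. In NT-D, 30 members were under 10% of the IV-D level, 32 between 10% and 50%, 10 between 50% and 100%, and 4 at or above it. The corresponding numbers in NT-LW were 24, 40, 7 and 5.

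The 3 highest unnamed members stood at 17.8% to 42.2% of their IV-D level in the clones. ENSSSCG00000013559 was at 1538 FPKM in IV-D, 274 in NT-D and 649 in NT-LW 4C embryos. ENSSSCG00000002968 was at 944, 222 and 231, and ENSSSCG00000014931 at 809, 310 and 275. For each of these genes both clone libraries lay below the IV-D library.

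Of the named members with the highest IV-D levels, some were far lower in both clone groups. TMCO2 was at 120 FPKM in IV-D 4C embryos, 11.0 in NT-D and 3.92 in NT-LW, and PARM1 at 107, 2.30 and 1.51. KRTAP11-1 was at 33.1, 1.97 and 0.992, and MCTS1 at 30.4, 2.82 and 1.71. All of these lay under 10% of the IV-D level in both clone groups. By contrast, APP, CFAP126 and MTMR11 stood at 152%, 50.2% and 54.6% of the IV-D level in NT-D and at 6.14%, 137% and 258% in NT-LW, and PRPF19 at 24.6% and 26.3%. SERPINA12 had 343 fragments in the IV-D library, 6 in NT-D and 0 in NT-LW, where no fragment was seen at any stage; its IV-D 4C level was 54.2-fold that of NT-D and at least 138-fold higher than that of NT-LW, taking 3 fragments as the limit that a count of 0 allows and covering counting error only. CRYGC stood at 19.6, 1.07 and 0.315 FPKM, GCSAML at 19.8, 0.743 and 0.554, and DSG1 at 16.3, 1.25 and 0.905.

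Some members were not reduced. PPM1N was the one member above its IV-D level in both clone groups, at 10.2 FPKM in IV-D, 18.7 in NT-D and 15.5 in NT-LW 4C embryos, although both differences were under 2-fold. PRLHR, a receptor for prolactin releasing hormone, stood at 7.65, 4.09 and 7.32 and was at 0 in the 2C library of each group. CFAP126 was at 20.9, 10.5 and 28.7. By the 2-fold limit, 2 members were higher in NT-LW than in IV-D (beside 9.45% of the table), BCL2L15 and MTMR11, and no member was higher in NT-D than in IV-D (beside 8.50% of the table).

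**Figure D3:**
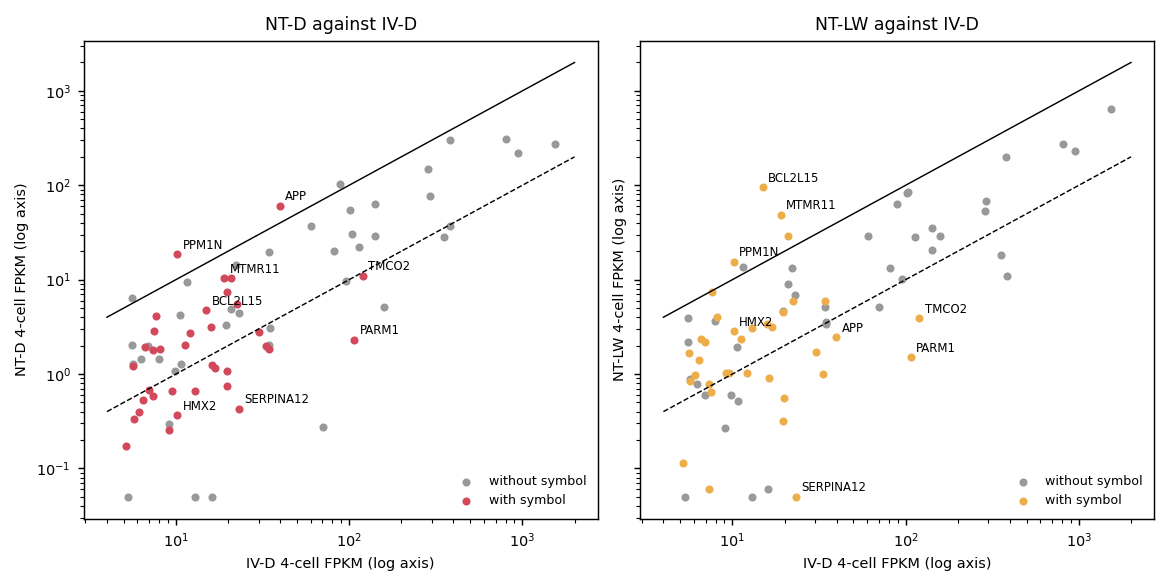
FPKM of the 76 transient 4-cell genes in NT-D (left) and NT-LW (right) 4C embryos against IV-D 4C embryos, both axes log; points are genes, the solid line marks equal levels, the dashed line 10% of the IV-D level, and values of 0 are drawn at the bottom. Most points lie below the solid line, with the named genes APP and PPM1N above it in NT-D and BCL2L15, MTMR11, CFAP126 and PPM1N above it in NT-LW.

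Grouped by known role, after the values were seen, the named members had medians between 5.40% and 26.5% of the IV-D level. The 10 signalling proteins stood at 20.6% of the IV-D 4C level in NT-D and 26.5% in NT-LW, the 9 receptors, channel-associated and membrane proteins 9.13% and 11.2%, the 6 nuclear and RNA factors 8.08% and 12.8%, the 5 structural proteins 7.66% and 5.57%, and the 5 enzymes and inhibitors 5.40% and 17.1%. Among the nuclear and RNA factors, HMX2 was at 10.2 FPKM in IV-D, 0.365 in NT-D and 2.83 in NT-LW, and MYT1L at 5.71, 0.336 and 0.849. The 36 named members together had medians of 9.21% in NT-D and 16.7% in NT-LW, and the 40 unnamed ones 22.8% and 18.4%.

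Across the 76 genes, log2(FPKM + 1) at the 4-cell stage had a Pearson r of 0.877 and a Spearman rho of 0.846 between NT-D and NT-LW, an r of 0.825 between NT-D and IV-D and of 0.776 between NT-LW and IV-D, as a description across genes that share their annotation and length. Between NT-LW and NT-D 4C embryos, 10 members were higher in NT-LW, beside 2.94% of the table, and 8 were lower, beside 0.837%. Among the 219 lasting genes the numbers were 45 and 4. The 2 clone groups differ in the breed of the donor boar, in the cell line and in the library, which cannot be told apart.

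The largest of these differences concerned APP and BCL2L15, in opposite directions. APP was at 39.8 FPKM in IV-D, 60.6 in NT-D and 2.44 in NT-LW 4C embryos, a difference of -4.16 between NT-LW and NT-D on the log2(FPKM + 1) scale, and its 2C values were 0.318, 0.219 and 0.392. BCL2L15 was at 14.99 in IV-D, 4.76 in NT-D and 96.0 in NT-LW, a difference of 4.07, with 2C values of 0, 0.130 and 0.783. Of these 4C libraries, NT-LW was thus the lowest for APP and the highest for BCL2L15. MTMR11 was also higher in NT-LW (49.0 FPKM against 10.4 in NT-D and 19.02 in IV-D), as were HMX2 (difference 1.49) and CFAP126 (1.37). TMCO2 (-1.28) and DGKH, a diacylglycerol kinase (-0.87, short of the 2-fold limit), were lower in NT-LW.

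PTPN22, the neighbour of BCL2L15, did not share its excess in NT-LW. It was at 5.64 FPKM in IV-D, 1.21 in NT-D and 1.66 in NT-LW 4C embryos. Over all placed named members, 32 further genes of the table lay next to a member within 100000 bases. Of these, 12 (37.5%) were higher in IV-D 4C than in 2C embryos, beside 29.2% of the table.

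The members also declined after the 4-cell stage in the clones. Among members with an FPKM of at least 1 at the 4-cell stage, the median 8C level was 15.4% of the 4C level in NT-D and 14.0% in NT-LW; in IV-D it was 2.13%, which the choice of genes holds under 20%. From 4C to 8C, 36 members were lower in NT-D, beside 26.1% of the table, and 40 in NT-LW, beside 23.4%. Of the lasting genes, 23 and 40 of 219 were lower in these comparisons. A level at 8C of at most 0.2 times that at 4C was seen in 31 of 59 members in NT-D and 32 of 56 in NT-LW, against 5 of 189 and 11 of 204 lasting genes.

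The whole definition, applied to the 8 NT-D libraries, was met by 24 genes of the table (0.279%), of which 16 were members, and in NT-LW, with the in vitro matured oocytes as first stage, by 22 genes (0.256%), of which 12 were members. The named members among them were APP and PPM1N in NT-D and CFAP126, MTMR11, PPM1N and PRLHR in NT-LW. PPM1N therefore passed in every group: it was at 1.84, 2.26 and 1.11 FPKM in IV-D, NT-D and NT-LW 8C embryos and at most 0.436 in the morula libraries. BCL2L15 missed the definition in NT-LW by its 8C value (21.5 FPKM, 22.4% of the 4C level), and in NT-D its value was 4.76 at 4C and 8.73 at 8C.

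Several named members had their highest clone value later than the 4-cell stage. In NT-D these were led by CFAP126 (11.6 FPKM at 8C against 10.5 at 4C), BCL2L15 (8.73 at 8C) and PARM1 (5.92 in morulae against 2.30 at 4C). In NT-LW they were led by PARM1 (10.6 at 8C against 1.51 at 4C), APP (3.71 at 8C against 2.44) and TM4SF5, a tetraspanin-like membrane protein (2.51 in IT against 2.33). PARM1 peaked late in both clone groups, and its values stayed far below its 107 FPKM in IV-D 4C embryos at every clone stage. The unnamed ENSSSCG00000034642, singled out after its values were seen, was at 6.28 FPKM in IV-D 4C embryos and under 1 in the other IV-D libraries, but stood at 125 in NT-LW 8C embryos and 48.1 in NT-LW morulae, against 0.561 and 0.229 in NT-D.

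At the 8-cell stage, 18 members were higher in NT-D than in IV-D embryos, beside 9.38% of the table, and 9 in NT-LW, beside 14.5%; 2 and 5 were lower, beside 15.1% and 15.3%. These comparisons contain the IV-D 8C value, which the rule held low. The lasting genes were higher in 10 and 13 and lower in 67 and 90 of 219 cases. Their choice worked the other way, as each exceeded 0.2 times the 4C value in some later IV-D library. Only 19 of the 219 had an IV-D 8C value of at most 0.2 times the 4C value. For them a lower clone value is thus also in part built in. Oocyte transcripts were also more abundant in clones at this stage: the 11 measured ones summed to 404 FPKM in NT-D, 445 in NT-LW and 60.1 in IV-D 8C embryos. Their part in the member values was not tested. No oocyte transcript could be a member, because all 11 had an FPKM of at least 1 in IV-D oocytes.

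In morulae the 2 clone groups parted. Neither clone library was used in the choice of genes. The members summed to 113 FPKM in NT-D and 464 in NT-LW morulae, against 49.0 in IV-D. Against IV-D morulae, whose value the rule held low, 25 members were higher in NT-LW and 0 lower, beside 10% and 3.5% of the table, and 13 were higher in NT-D and 0 lower, beside 17.1% and 3.55%. Of the 76, 20 were higher in NT-LW than in NT-D morulae, beside 6.44% of the table, and 1 was lower, ENSSSCG00000032608 (0.0220 against 2.05 FPKM), beside 13.0%. Among the lasting genes 28 of 219 were higher and 11 lower. All 20 were without a symbol, and the 36 named members had 0 in either direction. Only 11 of the 36 had an FPKM of at least 1 in either clone morula library, against 26 of the 40 unnamed members. The rest lay under the minimum and could not be counted. Most of the 20 did not show this excess at the preceding stage. There, 5 members were higher in NT-LW than in NT-D, beside 3.41% of the table, and 12 lower, beside 1.84%. Of the 20, ENSSSCG00000034642 and ENSSSCG00000033635 were already higher in NT-LW at 8C, by 6.33 and 1.02 on the log2(FPKM + 1) scale.

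**Figure D4:**
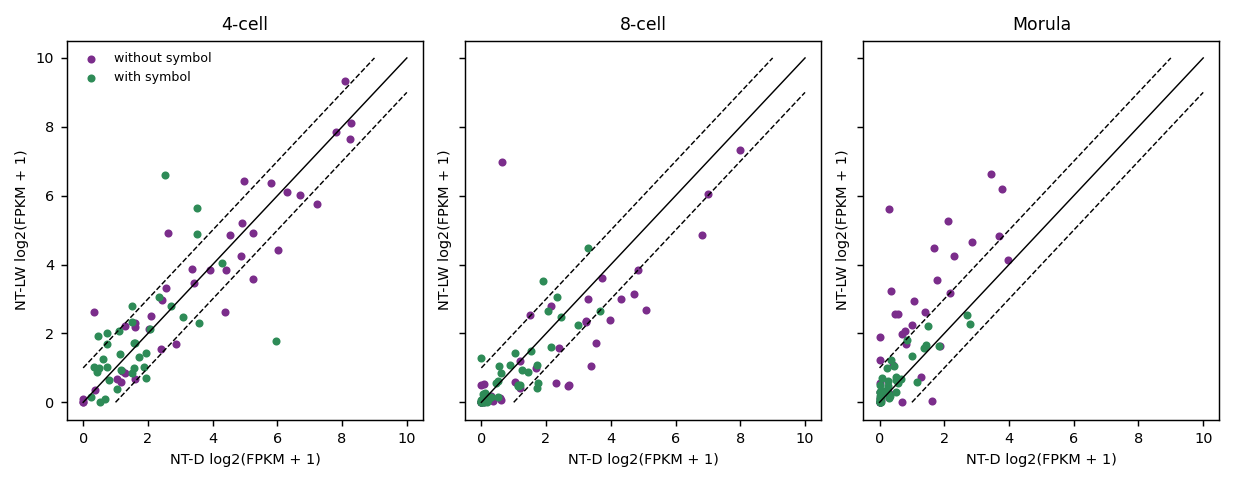
log2(FPKM + 1) of the 76 transient 4-cell genes in NT-LW (y axis) against NT-D (x axis) at the 4-cell, 8-cell and morula stages; points are genes coloured by whether they have a symbol, the solid line marks equal levels and the dashed lines a 2-fold difference. In morulae 20 genes without a symbol lie above the upper dashed line and 1 below the lower one.

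The 4C level of these 20 members varied widely in NT-LW, from 0.270 FPKM for ENSSSCG00000036400 and 0.791 for ENSSSCG00000034642, which had the largest difference in morulae (5.32 on the log2 scale), to 649 for ENSSSCG00000013559. The genes given here were chosen after their values were seen. ENSSSCG00000013559 ran through 274, 254 and 9.93 FPKM in NT-D and 649, 160 and 97.3 in NT-LW at 4C, 8C and MO. ENSSSCG00000002968 ran through 222, 127 and 12.9 in NT-D and 231, 64.6 and 71.7 in NT-LW. Both thus fell in NT-D morulae to a small part of the 8C value and stayed at 97.3 and 71.7 FPKM in NT-LW morulae.

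Some were lower at 8C than in morulae of NT-LW. ENSSSCG00000014931 was at 275, 7.89 and 21.2 FPKM at 4C, 8C and MO of NT-LW and at 310, 25.2 and 2.19 in NT-D. ENSSSCG00000036877 was at 82.0, 7.06 and 37.4 in NT-LW and at 55.2, 8.80 and 3.34 in NT-D. Between 8C and MO, 14 members were higher and 9 lower in NT-LW, beside 20.1% and 11.1% of the table, whereas 2 were higher and 25 lower in NT-D, beside 29.3% and 11.1%. In IV-D, 0 were higher and 19 lower, beside 10.5% and 11.6% of the table.

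The marker lists differed between the 2 morula libraries in both directions. The 11 oocyte transcripts summed to 55.7 FPKM in NT-LW morulae and 361 in NT-D morulae, and the 5 blastocyst markers to 107 and 510. The 6 fibroblast markers summed to 9.13 and 7.04 and the 6 genome activation genes to 381 and 271. Their part in the member values was not tested. In blastocysts the members were again low: 9 and 11 had an FPKM of at least 1 in the NT-LW IT and TE libraries, beside 77.7% and 74.1% of the table, and 7 and 3 in NT-D, beside 77.1% and 73.8%. In IV-D, where the rule held these values low, the counts were 10 and 7. ENSSSCG00000002968 was the highest of them in NT-LW TE, at 23.8 FPKM, against 0.581 in NT-D TE and 1.91 in IV-D TE.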

How the data were processed

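The authors made polyA RNA libraries from pooled embryos (SMART-Seq v4, NEBNext Ultra), aligned reads to Sscrofa11.1 with HISAT2 2.0.4, counted genes with HTSeq 0.9.1 and deposited FPKM values for 8603 genes; how these genes were selected is not given in the sources used here. Samples were grouped by the titles in the labels. The members and lists were chosen with earlier results of these data known. From the deposited FPKM, whole fragments, lengths and depths were recovered (100% of 197869 values whole within 0.1 fragments; 14952784 to 22991067 fragments a library), and genes were called by a log2(FPKM + 1) difference over 1 with FPKM of at least 1. On simulated data for the NT-D 4C against 2C comparison (8603 genes, 200 changed 8-fold), 100% of changed and 0.0119% of unchanged genes were called, which covers counting error only. With 1 library per condition, no replicate error was estimated. Symbols came from an Ensembl table (7371 genes matched), and positions and promoters from RefSeq. Named genes were those with the highest 4C level in each group (15 in IV-D, 6 in each clone group), the transcription factors, the 4 largest differences between clone groups each way, the 4 highest late peaks in each clone group, the 3 highest without a symbol, the genes next to each limit and list members; others are marked. The values of 2 members are not reported here. Alternatives were the pseudocount, the minimum, scaling, the limits of the rule and a test on fragments. Python 3.11.15, numpy 2.4.6, pandas 2.3.3 and scipy 1.17.1 were used.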

Additional observations from a re-analysis of the deposited data

Results flagged for a closer look

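Between successive stages, 8 members moved by over 1 on the log2(FPKM + 1) scale in opposite directions in the 2 clone groups, each with 1 library per stage, and none has a symbol. The differences between the groups were not tested. From the 4-cell to the 8-cell stage, ENSSSCG00000014929 changed by 1.36 in NT-D and -2.53 in NT-LW. The other seven moved between the 8-cell stage and the morula, where each was lower in NT-D and higher in NT-LW. ENSSSCG00000014931 changed by -3.03 in NT-D and 1.32 in NT-LW, ENSSSCG00000003444 by -1.11 and 3.17, ENSSSCG00000014930 by -2.21 and 2.09, and ENSSSCG00000037632 by -1.33 and 2.22. ENSSSCG00000036877 changed by -1.17 and 2.25, ENSSSCG00000034794 by -1.20 and 1.47, and ENSSSCG00000014789 by -1.91 and 1.56.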

How the results depend on the processing

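With 1 library per condition in the table no library could be left out, and the spread between replicate pools of a stage was not analysed here. No paired analysis was possible because each group has 1 library per stage and no comparison comes from a test. Over 152 alternatives, 124 left the value within 1.5 times or, for the 54 values of single genes, in the same direction and on the same side of the limit. Restricted to members with a symbol, the number of members was 36, of which 19 (NT-D) and 20 (NT-LW) were higher at 4C than 2C, 13 and 14 lower at 8C than 4C, 31 and 30 lower than IV-D at 4C, 24 and 25 at FPKM of at least 1 at 4C, 23 and 26 highest at 4C, and 9 different between the clone groups at 4C. With a minimum FPKM of 5, 29 and 31 were higher at 4C than 2C, 21 and 26 lower at 8C than 4C, and 29 and 31 reached this level at 4C. A pseudocount of 0.1 gave 30 members that differed between the clone groups at 4C, against 10 and 8 in the 2 directions. Later stages at up to 0.5 times the 4C value gave 117 members. The morula and 8-cell counts against other groups were added after seeing the data. Members higher in NT-LW than NT-D morulae numbered 13 with a minimum FPKM of 5 and 0 with a symbol. Members higher in NT-D than IV-D 8C embryos numbered 4 with a symbol. Members higher in NT-LW than IV-D morulae numbered 25, 12 with the higher minimum and 4 with a symbol. Members higher in NT-D than IV-D morulae numbered 13, and 5, 2 and 20 with the higher minimum, with a symbol and with libraries rescaled to a sum of 1000000. After that rescaling 70 of the 76 genes still met the rule, and after median-ratio scaling 72. The causes of these shifts were not tested.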
